A study of Homo sapiens with 27 samples.

Results

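The subtelomeric ends of the autosomes are described here: 39 regions of 2 Mb, cut into 7800 windows of 10 kb. They comprise the first 2 Mb of each autosome, except chromosomes 13, 14, 15, 21 and 22, and the last 2 Mb of all 22 autosomes, with the end set at the highest position marked in any library. They make up 2.71% of the autosomal windows but hold 1371 of about 19130 autosomal protein-coding genes (7.17%). The values that follow count distinct G positions marked with a score of 30 or more and compare them with windows 10 to 12 Mb from the same ends.

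Chromosome ends are capped by TTAGGG repeats. Next to the cap lie segmental duplications shared between chromosomes, and further in many ends are rich in genes, GC pairs and CpG islands. Temozolomide (TMZ) is an alkylating drug that methylates guanine at the O6 position, and MGMT is the enzyme that removes this methyl group directly. O6-MeG-seq captures fragments with O6-methylguanine by antibody and marks the base at which a polymerase stalls.

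The cells were LN-229, a human glioblastoma line, as an MGMT-transfected line (MGMT) and a transfection control (WT). They received 1 mM TMZ or, as solvent, 1% DMSO, 1 time (1x) or 3 times at intervals of 4 h (3x), and DNA was extracted at 24 h counted from the first dose. This gave 8 groups of 3 libraries, WT and MGMT after solvent 1x, solvent 3x, TMZ 1x and TMZ 3x. A further 3 libraries came from purified DNA treated with TMZ outside cells (naked DNA), replicate 1 from non-transfected WT cells, replicate 2 from the WT line and replicate 3 from the MGMT line. No source used here says that replicates were separate cultures, so p-values measure the spread between libraries, which may be technical.

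Each list holds distinct positions, not reads. Libraries held 165195 to 8822222 autosomal G sites with a score of 30 or more, of which 6494 to 351195 lay in the ends. G made up 67.8% to 70.9% of such sites in naked DNA, 32.6% to 64.1% in TMZ-treated cells and 19.0% to 43.7% in solvent-treated cells. By the sites they shared at bases other than G, the libraries fell into 5 sets, although the labels name no batch. Set 1 held the 4 cell libraries of replicate 1 given 1x and naked DNA replicate 1, and it stood apart from the others. Its solvent library of MGMT cells had a G share of 43.7%, above the 37.4% of its TMZ library, against the labels' order, so results are also given without set 1.

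Example stretches show what was marked. They are the 250 bases upstream of gene starts in RefSeq's promoter table (GRCh38), 5′ to 3′ on the gene's strand, and capitals are the G or C positions at which the G, on either strand, was marked with a score of 30 or more in at least 1 naked DNA library. PRPF6 encodes a splicing factor, and its promoter in the 20q end had the most naked DNA marks of the 2015 RefSeq promoters in the ends. TERT encodes the reverse transcriptase of telomerase and lies in the 5p end.
PRPF6 (chr20:63980882-63981131, plus strand): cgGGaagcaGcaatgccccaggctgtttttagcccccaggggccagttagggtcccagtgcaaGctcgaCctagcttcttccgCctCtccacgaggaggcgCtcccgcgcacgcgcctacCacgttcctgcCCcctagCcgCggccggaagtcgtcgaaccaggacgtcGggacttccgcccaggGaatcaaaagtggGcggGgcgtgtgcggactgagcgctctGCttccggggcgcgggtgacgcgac
TERT (chr5:1295069-1295318, minus strand): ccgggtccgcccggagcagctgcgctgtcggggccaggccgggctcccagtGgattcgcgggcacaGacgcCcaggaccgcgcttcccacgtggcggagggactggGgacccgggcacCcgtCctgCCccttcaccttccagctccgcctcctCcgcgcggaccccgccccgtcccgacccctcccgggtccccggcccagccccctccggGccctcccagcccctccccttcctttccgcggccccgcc
Over the whole 300 bases of the table, PRPF6 had 7, 7 and 10 naked DNA sites, 9 over the 12 TMZ libraries and 0 over the 12 solvent libraries. TERT had 6, 4 and 1 in naked DNA, 13 under TMZ and 1 under solvent. Marks at any one promoter were too few for a comparison between groups.

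In naked DNA the ends carried more G sites than windows 10 to 12 Mb inward. The ratio of densities was 1.21, 1.31 and 1.29 in the 3 replicates. It was above 1 in 30 of 39 ends and differed widely among them, from a log2 ratio of -0.71 at 3p to 1.34 at 17q, with 7p at 1.30 and 20q at 1.04. The surplus did not reach the tip. In the outermost 20 kb the log2 ratio was -2.46 ± 0.092 (SD, n = 3), from 50 to 100 kb it was -0.55 ± 0.024, and from 1000 to 1500 kb it was 0.48 ± 0.069. Over the same distances the share of sites with a score below 30, all bases together, fell from 89.9% to 50.6% and 11.1%, so the dip at the tip was measured where most sites were left out by the score, and their part in it was not tested. The p ends start at position 1 and the q ends at the last marked position, and windows without marks stayed in the density. A naked DNA G site was found in 146 windows at 1p, 179 at 11p and 181 at 19p, against 200 at 2q. Whether the empty windows hold known sequence, and their part in the dip and in the ratios of single ends, was not tested.

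**Figure D1:**
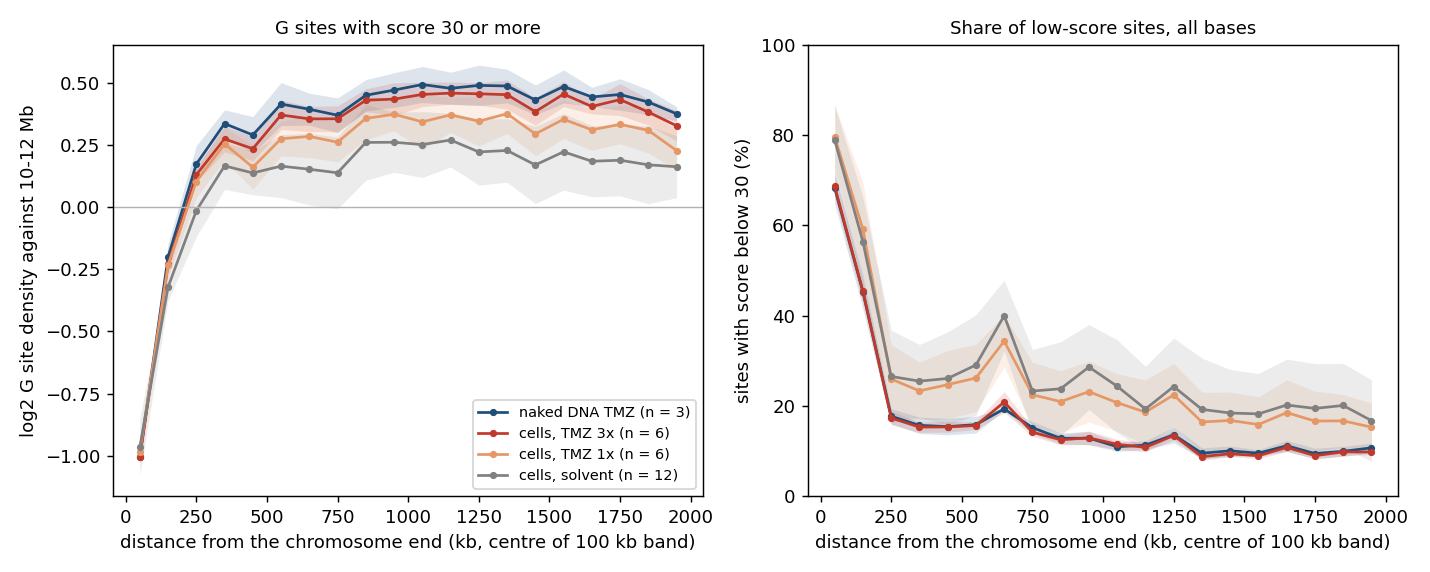
G site density against 10 to 12 Mb (left, log2) and the share of sites with a score below 30 (right, %) in 100 kb bands from the chromosome end; lines are group means and shading 1 SD. All groups rise from a low outermost band. Beyond 500 kb the mean over the 12 solvent libraries is the lowest of the 4 lines, although single solvent libraries of set 1 lie above it, with MGMT 1x replicate 1 at 0.58 in the band centred at 1050 kb.

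TMZ-treated cells came closer to the naked DNA pattern than solvent-treated cells did. The end enrichment of a library is its log2 ratio of density in the ends to that at 10 to 12 Mb, less the naked DNA mean. In solvent it ran from -0.32 over a median of -0.25 to 0.074, and under TMZ from -0.22 over a median of -0.054 to 0.030. The ranges overlapped, and the highest solvent value was that of MGMT 1x replicate 1, in set 1. The means were -0.074 ± 0.071 (SD, n = 12) under TMZ and -0.22 ± 0.11 (n = 12) in solvent. The difference of 0.14, or 1.11-fold, had p = 0.0044 in an exact permutation test, two-sided, with labels exchanged only among libraries of 1 line and 1 exposure number, and 0.017 after Benjamini-Hochberg adjustment over 10 tests; TMZ was higher in 10 of 12 same-numbered pairs. Within sets it was -0.062 in set 1, 0.13 in set 2 and 0.21 in set 3, and without set 1 it was 0.18 (exact p = 0.00014). It missed the threshold without replicate 3 (0.11, exact p = 0.11) and with no minimum score (0.051, exact p = 0.26). Sites at A, C and T moved the same way, by 0.11 from solvent to TMZ, and the share of low-score sites in the ends was 23.2% under TMZ and 31.0% in solvent; their part in the difference was not tested.

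The outer part of the ends was compared with the inner part by the distal gradient, the log2 ratio of density in 0 to 0.5 Mb to that in 0.5 to 2 Mb, less the naked DNA mean. It was 0.020 ± 0.038 under TMZ and 0.10 ± 0.057 in solvent (SD, n = 12 each). The difference of -0.082 had exact p = 0.0022 and adjusted p = 0.017. It was 0.048 within set 1, -0.090 in set 2 and -0.11 in set 3, and without replicate 3 it was -0.070 (exact p = 0.054). Without set 1 it was -0.098 (exact p = 0.00014), and with no minimum score it was -0.162 (exact p = 0.020).

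The gradient was lower after 3 exposures to TMZ than after 1, with means of -0.011 ± 0.019 and 0.051 ± 0.023 (SD, n = 6 each), against 0 for naked DNA by construction. The 3x libraries measured -0.024, -0.0042 and -0.029 in WT and 0.022, -0.019 and -0.010 in MGMT cells. The 1x libraries measured 0.019, 0.070 and 0.054 in WT and 0.047, 0.081 and 0.034 in MGMT cells. Within each line every 3x value lay below every 1x value, while over both lines the ranges overlapped. The difference of -0.061 had exact p = 0.005, the smallest this design allows, and adjusted p = 0.017. With any 1 replicate number left out it ran from -0.075 to -0.048 at exact p = 0.056, the smallest then possible. The share of low-score sites moved with the exposures too: it was 63.3% after 1x and 51.0% after 3x from 50 to 100 kb, 24.64% and 15.96% from 200 to 500 kb, and 25.7% and 15.3% from 500 to 1000 kb, and its part in the difference was not tested. Within sets the difference in gradient was -0.076 in set 2 and -0.060 in set 3, and with no minimum score it was -0.301 (exact p = 0.005). With the replicate number as a block it had exact p = 0.031, the smallest that 6 pairs allow, since 3x was lower in each pair. The adjusted p over the 8 blocked tests was 0.083 and did not pass. Beside the other blocked values it could not have passed, so this test could not decide. Of the numbers that block joins, only replicate 3 has its 1x and 3x TMZ libraries in the same set. End enrichment was -0.036 ± 0.047 after 3x and -0.11 ± 0.074 after 1x (SD, n = 6 each), and the difference of 0.077 did not pass (exact p = 0.06, adjusted 0.15). It was 0.13 without replicate 1 (exact p = 0.056) and 0.027 without replicate 2 (exact p = 0.44). It was 0.11 (exact p = 0.03) without set 1, whose 2 TMZ libraries are both 1x, and -0.030 (exact p = 0.53) with no minimum score.

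**Figure D2:**
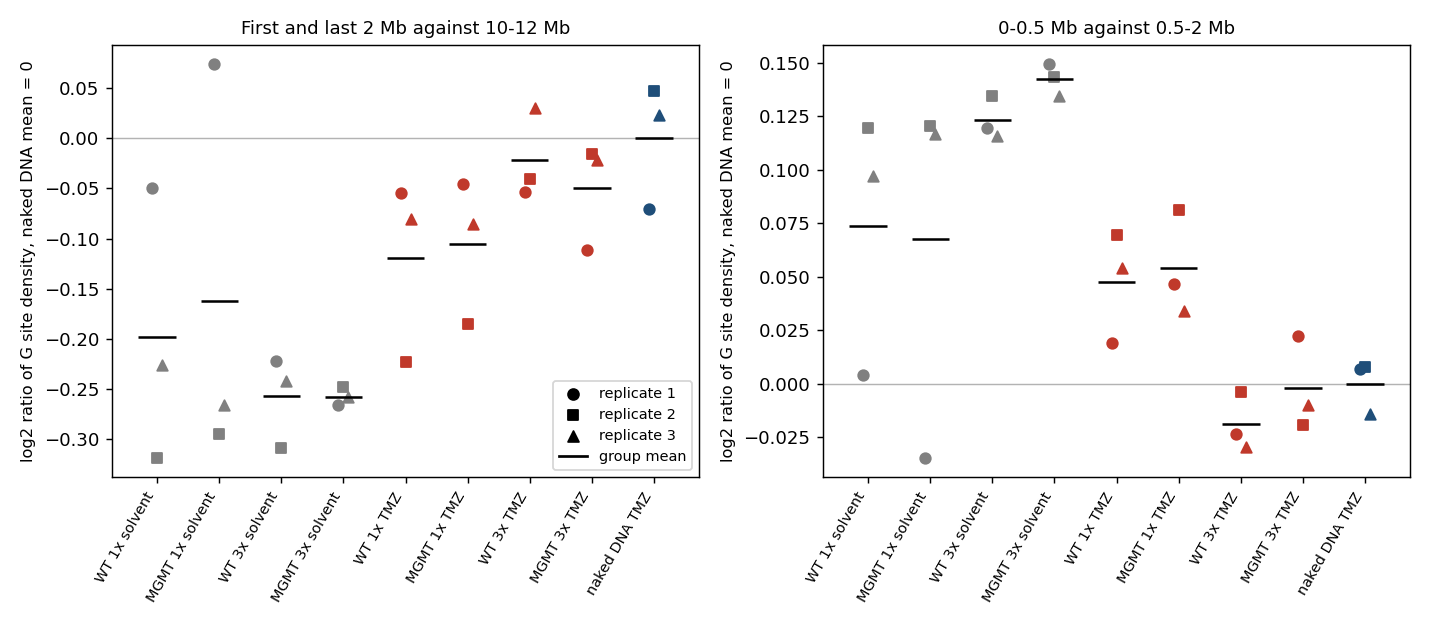
End enrichment (left) and distal gradient (right) of each library, as log2 ratios with the naked DNA mean at 0; symbols are replicates and bars group means. Replicate 1 of both 1x solvent groups lies apart from its group, and all 3x TMZ libraries lie between -0.029 and 0.022 on the right.

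The difference between the lines did not pass the threshold over the ends as a whole. Under TMZ, MGMT minus WT was -0.0072 in end enrichment (exact p = 0.86) and 0.012 in the gradient (exact p = 0.36). In solvent the values were 0.018 (exact p = 0.74) and 0.0066 (exact p = 0.71). Naked DNA lay 0.074 above TMZ-treated cells in end enrichment (exact p = 0.11, adjusted 0.22) and differed from them by -0.020 in the gradient (exact p = 0.40). The former was 0.113 without replicate 1, 0.029 without replicate 2, 0.114 with all autosomal G sites as reference, 0.033 with solvent subtracted, 0.010 with no minimum score and -0.020 within set 1, and the latter was -0.155 with no minimum score; none of those tested passed, and the value within set 1 has no test. These tests do not show that the groups are alike, since end enrichment had SDs of 0.064 to 0.14 among the 6 libraries of a line and treatment.

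Single ends spread widely in cells. As a description, the lowest mean densities under TMZ relative to naked DNA and to 10 to 12 Mb were at 7p (-0.25 ± 0.22), 18q (-0.21 ± 0.16) and 11p (-0.17 ± 0.16), and the highest at 18p (0.091 ± 0.11), 1q (0.051 ± 0.059) and 17p (0.029 ± 0.12; SD, n = 12 each). Ends rich in naked DNA marks were those where TMZ exceeded solvent most. Across the 39 ends, the naked DNA density and the TMZ minus solvent difference had Pearson's r = 0.80 and Spearman's rho = 0.79, as a description, since ends share libraries and base composition. Relative to naked DNA, both cell groups tended lower where naked DNA was richer, with Pearson's r = -0.67 under TMZ and -0.84 in solvent. Naked DNA density enters both terms of these correlations. TMZ minus solvent ran from -0.43 at 3p to 0.59 at 7p. Sites at A, C and T went the same way at both ends. Relative to naked DNA they were at -0.34 under TMZ and -0.86 in solvent at 7p, and at 0.082 and 0.40 at 3p. Their part in the pattern across ends was not tested.

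**Figure D3:**
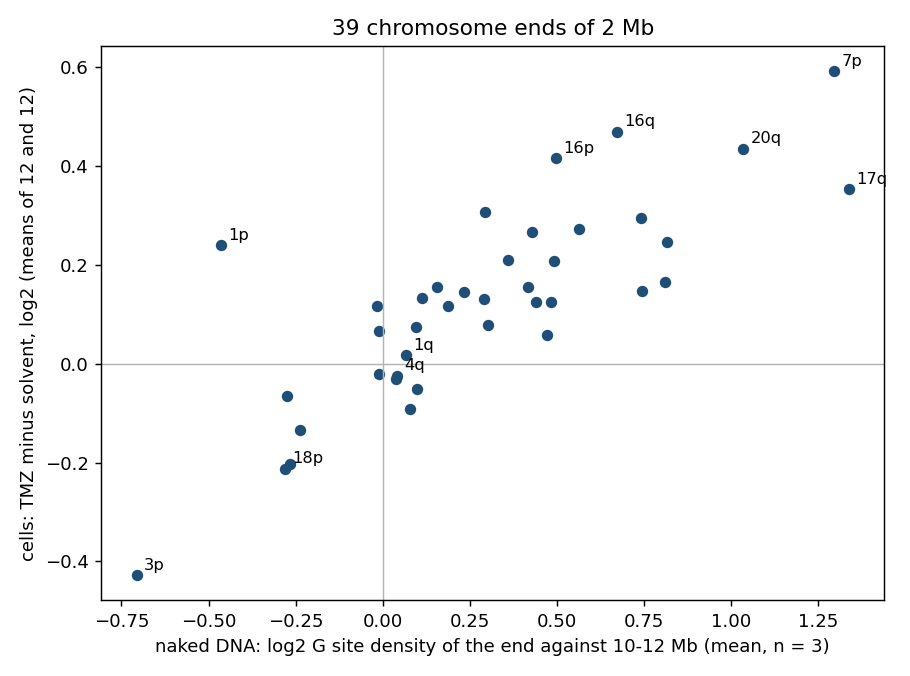
Each point is 1 of 39 ends: naked DNA density against 10 to 12 Mb (x, log2) and TMZ minus solvent in cells (y, log2). Points rise from 3p at -0.71 and -0.43 to 7p at 1.30 and 0.59, and 1p lies above the trend.

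Against all 2 Mb blocks of the autosomes, scaled to each library's autosomal G sites and fitted with limma's voom, 25 of 39 ends were higher under TMZ and 4 lower (3p, 18p, 4q and 1q) at an adjusted p of 0.05. Of all 1404 blocks, 59.9% were called, 22.2% higher and 37.7% lower. The median log2 change was 0.17 over the ends and -0.044 over all blocks. The largest rises were at 16p, the end with the alpha-globin genes (0.62, SE 0.11, limma adjusted p = 0.00016), 16q (0.54, SE 0.083, adjusted p = 3.4e-05) and 1p (0.51, SE 0.092, adjusted p = 0.00013). The largest falls were at 3p (-0.28, SE 0.061), 18p (-0.20, SE 0.034) and 4q (-0.18, SE 0.033). At 16p, G sites per 1000000 autosomal G sites ran from 809 over a median of 1095 to 1450 under TMZ and from 542 over 684 to 1413 in solvent; the ranges overlapped. Without replicate 3, 9 of the 29 ends kept their call, and 16% of all blocks were called. Without set 1, 33 ends were called, including all 29, and 66.7% of all blocks. No end was called for 3x against 1x, where 0.214% of blocks were. At an unadjusted p under 0.05 there were 3 ends, and no share of all blocks is given at that threshold. Without set 1, 18 ends were called, all higher after 3x, and 34.8% of all blocks. No block was called for naked DNA against TMZ-treated cells (0%; 0 ends at an unadjusted p under 0.05).

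At 100 kb resolution, 265 of 764 end tiles were higher and 26 lower under TMZ (limma adjusted p at or below 0.05), where 9.14% and 10.5% of all 26857 tiles were (19.7% in all). The higher tiles lay inward more often, 23.3% of tiles in 0 to 500 kb and 40.5% in 1500 to 2000 kb. They numbered 18 of 20 at 20q and 17 each at 16p, 16q and 7p, and none at 1q, 3p, 4q, 9p and 18p. Of the end tiles, 1 had TMZ and solvent libraries that did not overlap, against 0.00372% higher and 0.0186% lower among all tiles. It lies on 19p at chr19:1100001-1200000 and overlaps GPX4, which reduces lipid peroxides, and SBNO2. It had 54.1 to 76.3 sites per 1000000 under TMZ and 26.6 to 53.0 in solvent, a log2 difference of 0.74 (SE 0.10, limma adjusted p = 4.5e-07). With limma-trend and median-of-ratios sizes, 178 end tiles were higher and 17 lower, against 10.4% of all tiles called; with no minimum score 265 were higher and 52 lower, against 22.1%. Without replicates 2 and 3 in turn, 147 and 143 end tiles were called, against 6.68% and 5.85% of all tiles.

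Among protein-coding genes wholly in the ends, 246 of 1161 tested were higher and 6 lower under TMZ (10.5% of all 17098 genes were called, 8.54% higher and 2% lower). Without set 1, 317 were called, and 13.3% of all genes. The largest changes were in FASN (17q), the fatty acid synthase, MAFG (17q), a small MAF transcription factor, and TMEM184A (7p). FASN had from 10 over a median of 63.5 to 156 sites per TMZ library and from 0 over 2 to 14 per solvent library, the 14 in the MGMT 1x replicate 1 library of set 1. Its log2 difference was 2.06 (SE 0.32, limma adjusted p = 7.4e-05), with MAFG at 1.797 (SE 0.27) and TMEM184A at 1.72 (SE 0.31). Few solvent sites lie behind these values, and in sites per 1000000 per kb FASN reached 1.86 in that solvent library against 0.58 to 1.70 under TMZ, so the groups overlapped. MAFG and TMEM184A had at most 5 and 7 sites in a solvent library, and their groups overlapped too. In sites per 1000000 per kb MAFG reached 1.48 in solvent against 0.71 to 1.67 under TMZ. TMEM184A reached 1.32 against 0.42 to 1.34. FASN had 43 sites in all over the 12 solvent libraries. FASN, MAFG and TMEM184A thus all passed the filter of 10 sites in 3 libraries only through TMZ and naked DNA libraries. No gene fit without this filter is given, and its part in the balance of higher and lower genes was not tested.

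Of 27 genes chosen as landmarks of the ends, 24 could be tested; 4 were higher and 1 lower under TMZ, a share near that of all end genes (21.7%; 10.5% of all genes). SHANK3 (22q), a postsynaptic scaffold, had from 0.59 over 0.83 to 0.96 sites per 1000000 per kb under TMZ and from 0.40 over 0.58 to 0.76 in solvent, a log2 difference of 0.47 (SE 0.12, limma adjusted p = 0.012). INPP5A (10q), an inositol phosphatase, rose by 0.28 (adjusted p = 0.0097), KANK1 (9p), a cytoskeletal regulator, by 0.24 (0.046) and ADARB2 (10p), of the RNA-editing ADAR family, by 0.20 (0.034) in the limma fit. FRG1 (4q), next to the D4Z4 repeats, was lower by a log2 difference of -0.91 (SE 0.26, limma adjusted p = 0.018). Few sites lie behind it, 1 to 6 per solvent library and 0 to 35 per TMZ library, and in sites per 1000000 per kb the groups overlapped, with 0 to 0.34 under TMZ and 0.15 to 0.50 in solvent. TERT did not pass (0.41, SE 0.15, limma adjusted p = 0.059), with 0.86 ± 0.082 sites per 1000000 per kb in naked DNA, 0.82 ± 0.10 under TMZ and 0.63 ± 0.22 in solvent. PTPRN2 (7q) had the most sites of the list, and its per-kb values were 0.60 ± 0.052 under TMZ and 0.56 ± 0.066 in solvent. In naked DNA against TMZ-treated cells, 8 of 1161 genes were called (0.689%), a share near the 0.784% of all genes. All 8 were higher in naked DNA, where 0.415% of all genes were higher and 0.368% lower. The largest changes were in SLCO4A1, an anion transporter (0.37), SLC9A3, a sodium-proton exchanger (0.36), and LOC124900586 (0.34).

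Ends were called between the lines no more often than blocks over all autosomes. Under TMZ, 8 of 39 were called, 4 higher and 4 lower in MGMT cells, a smaller share than the 27.5% of all blocks (17.7% higher and 9.76% lower). In solvent 7 were, 4 higher and 3 lower, again a smaller share than the 30.8% of all blocks (16.4% higher and 14.4% lower). Ends 1p, 1q, 2p and 2q were higher and 3p, 3q and 20p lower in MGMT cells under both, and 15q was lower under TMZ. The largest was 3p, with 747 to 950 G sites per 1000000 in WT and 440 to 559 in MGMT cells under TMZ, ranges that did not overlap (log2 difference -0.74, SE 0.087, limma adjusted p = 1.0e-06), and -0.56 in solvent. At 2q the ranges of the lines overlapped under both treatments, with 820 to 1090 in WT and 1008 to 1244 in MGMT cells under TMZ. They also overlapped in solvent at 1p, 1q and 20p. By limma, the interaction of line and treatment was called in 0 of 1404 blocks (0%; 1 end at an unadjusted p under 0.05) and in 0 of the 1161 end genes (0.00585% of all genes, lower; 56 end genes at an unadjusted p under 0.05). Naked DNA replicate 3, of the MGMT line, moved the same way from replicate 2, of the WT line, at all 7 ends, with 461 against 818 sites per 1000000 at 3p. Sites at A, C and T moved likewise, by -0.78 under TMZ and -0.73 in solvent at 3p and by 0.44 and 0.46 at 1q. CNTN6, a contactin of neurons on 3p, was at -0.83 in MGMT against WT under TMZ (SE 0.14, limma adjusted p = 6.1e-05), and CHL1, its neighbouring adhesion gene, at -0.72 (limma adjusted p = 0.00068). OR14A16 (1q), an olfactory receptor, was at 1.15 (SE 0.27, limma adjusted p = 0.0049) and SLC35E2B (1p) at 1.06 (SE 0.28, limma adjusted p = 0.014). Few sites lie behind OR14A16, 2 to 20 per WT and 4 to 25 per MGMT library under TMZ. SLC35E2B had 2 to 43 and 8 to 61. In sites per 1000000 per kb both overlapped, with 0.12 to 0.42 in WT and 0.41 to 0.95 in MGMT for OR14A16. For SLC35E2B they were 0.034 to 0.34 and 0.29 to 0.49. Of 1161 end genes, 17 were higher and 13 lower under TMZ (2.58%), against 5.81% of all genes (3.59% higher and 2.22% lower). In solvent limma called 0 end genes (0.0117% of all genes, 0.00585% in each direction; 89 at an unadjusted p under 0.05). For 3x against 1x it called 0 end genes (0% of all genes, with 173 end genes at an unadjusted p under 0.05). No share of all genes or blocks is given at an unadjusted p. The unadjusted counts thus do not show that end genes or ends stand out. The part of the difference in naked DNA in that between the cells was not tested.

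**Figure D4:**
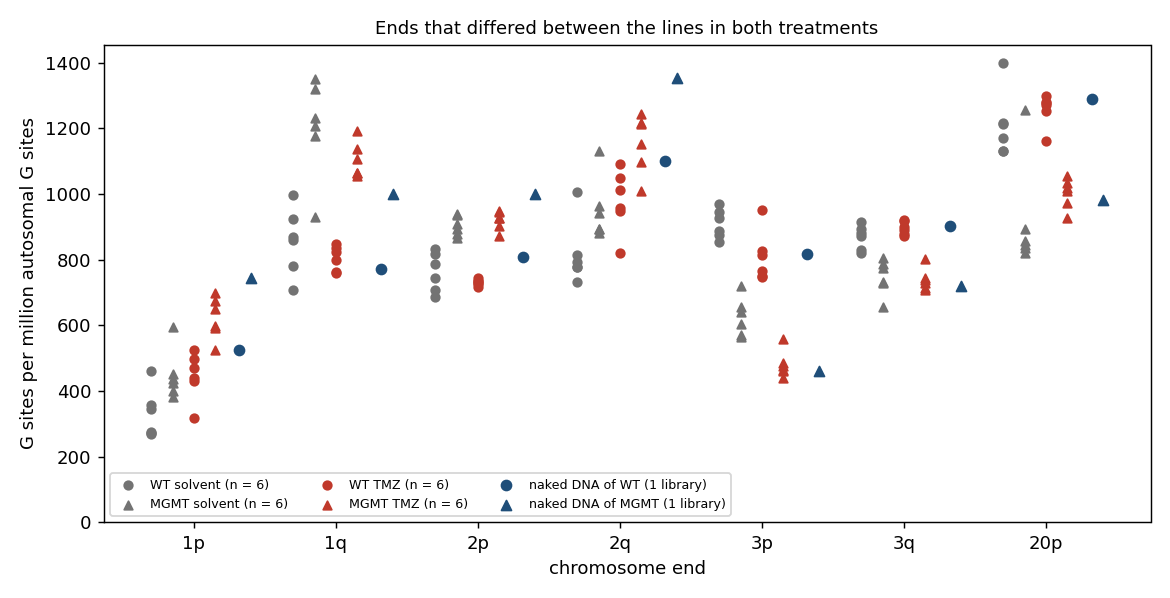
G sites per 1000000 autosomal G sites at the 7 ends that differed between lines under both treatments; each point is a library. At 3p all MGMT TMZ libraries (440 to 559) lie below all WT TMZ libraries (747 to 950), and naked DNA of the same lines lies in the same order.

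How often a G was marked differed with the base before it, in the ends and in other promoters. In end promoters (mean GC 65.1%, against 57.0% in other autosomal promoters), a G after G was marked at 1.45 ± 0.028 times the rate of all G in naked DNA, a G after A at 1.26 ± 0.071, and a G after C or T at 0.49 ± 0.024 and 0.49 ± 0.080 (SD, n = 3). TMZ-treated cells gave 1.42 ± 0.074, 1.26 ± 0.087, 0.51 ± 0.058 and 0.53 ± 0.15 (n = 12), and solvent 1.00 ± 0.15, 1.08 ± 0.18, 0.97 ± 0.28 and 0.96 ± 0.33. Single solvent libraries spread from 0.37 to 1.42 over these contexts, on 5 to 86 marks in each context. Solvent means in other promoters were 0.98 ± 0.16 after G, 1.05 ± 0.072 after A, 0.94 ± 0.13 after C and 1.025 ± 0.19 after T. The MGMT 1x solvent libraries spread there too, on 391 to 985 marks after G. They ran from 0.91 to 1.41 after G, 0.59 to 1.05 after C and 0.55 to 1.135 after T, and are included in the solvent means. In other promoters TMZ-treated cells gave 1.41 ± 0.078 after G, 1.25 ± 0.045 after A, 0.54 ± 0.072 after C and 0.51 ± 0.088 after T, so G and A lay above C and T there too, and the values after C and T differed by less than their SDs. This measure was chosen after the data were seen and has no test.

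**Figure D5:**
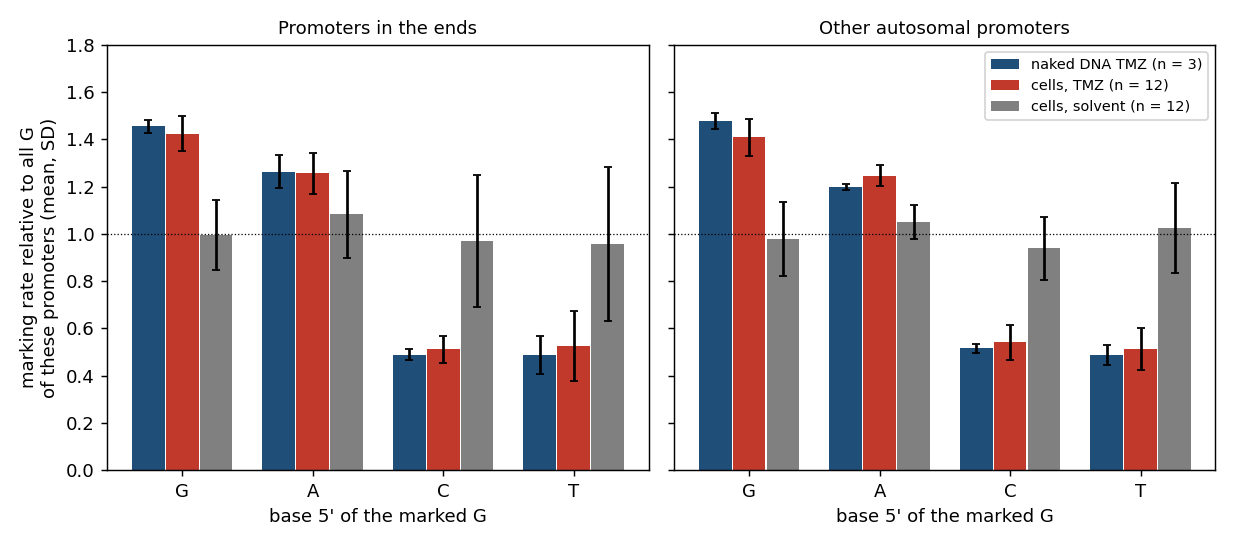
Marking rate of G by its 5′ base, relative to all G of the same promoters (bars are means, whiskers SD over libraries; the dotted line is 1). Naked DNA and TMZ-treated cells have 1.45 and 1.42 after G and about 0.5 after C, and solvent means lie near 1, with single libraries from 0.37 to 1.42.

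Marks in telomere repeats were counted at any score, since only 0 to 4 of the 175 to 1288 marks per library in these units had a score of 30 or more. Units were found where marked bases read TTA on both sides of 3 bases that were G or unmarked in every library. They numbered 556, of which 550 lay in the outermost 20 kb and 294 at 5p. The second G of the unit was marked 1.39 ± 0.27 times as often as the first under TMZ and 1.15 ± 0.22 times in solvent (SD, n = 12 each), with 1.13 ± 0.11 in naked DNA (n = 3). Under TMZ the first G had 27.5% ± 3.3 of the marks of the unit and in solvent 30.8% ± 3.5. Without the cell libraries of set 1 the ratios were 1.45 and 1.18. The ranges of both groups overlapped, and this is a description with no test. Each position counts 1 time per library, so the ratio is limited where most units are marked. The first G was marked in 7.37% to 76.4% of units per library. Naked DNA replicate 1, at 76.4%, gave a ratio of 0.998. MGMT 1x TMZ replicate 2, at 20.5%, gave 2.04, while MGMT 1x solvent replicate 3, at 16.7%, gave 1. The part of this limit in the ratios was not tested.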

How the data were processed

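O6-MeG-seq was run on 27 libraries. The authors deposited one list per library: chromosome, position, strand, base and a score of 0 to 42, with no header. The submitters' processing notes name FastQC 0.11.9, Trimmomatic 0.38 and 0.39, cutadapt, Bowtie2 2.3.5.1, GATK 4.2.0.0, SAMtools 1.12, bedtools 2.29.2 and GRCh38, without roles; what the deposited score measures is not given in the sources used here. Each site counted 1 time, and rows with a score of at least 30 were used. Because sites are not reads, no count model of reads was run.

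Single values were compared by exact two-sided permutation within strata, adjusted over 10 tests. Blocks, 100 kb tiles and genes (RefSeq, GRCh38.p14) that reached 10 sites in 3 or more libraries were fitted with limma 3.58.1 (voom, 9 group means, sizes from autosomal G sites) in R 4.3.3. Tests were tried on simulated data. Sets of libraries were formed where a pair shared over 1.6 times the median of pairs, a threshold chosen after the data were seen. Named ends, genes and tiles followed a written rule (largest changes past the threshold and a fixed list), but members and lists were chosen with earlier results of these data known. Alternatives were replicates left out, no minimum score, other references and other scaling; leaving out set 1 was chosen after seeing the data. Per-site precision is limited by sites per window, and depth in reads is unknown.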

Additional observations from a re-analysis of the deposited data

Results flagged for a closer look

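The effect of TMZ against solvent on the ends differed between 3 exposures and 1. In end enrichment TMZ minus solvent was 0.22 after 3x and 0.068 after 1x, a difference of 0.154 (exact permutation p = 0.015, adjusted 0.03). In the distal gradient it was -0.14 and -0.020, a difference of -0.1235 (exact p = 0.005, the smallest possible, adjusted 0.02). Each test compared 6 same-numbered TMZ minus solvent values after 3x with 6 after 1x. Between TMZ libraries alone, with all sets included, 3x minus 1x was 0.077 in end enrichment and -0.061 in the gradient. The rest of both differences came from the solvent libraries, which also differed between 1x and 3x. Among cell libraries, set 1 holds only 1x. Without it the differences were 0.089 (exact p = 0.04) and -0.090 (exact p = 0.01). The 3x pairs of replicate 3 join TMZ libraries of set 3 with solvent libraries of set 4, which holds only 3x solvent libraries. The part of the sets in these differences was not tested. In sites of any score, the second over the first G of TTAGGG units was 1.264 in WT 1x TMZ libraries and 1.25 in WT 3x TMZ libraries, each library above every one of its solvent group (at most 1.03 and 1.07), while the MGMT groups overlapped. The share of units marked, which limits this ratio, differed among these libraries too, and its part was not tested.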

How the results depend on the processing

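Same-numbered libraries given 1x fell into the same set, so the numbers tie some libraries together, but not every same-numbered pair deviated alike: correlations were above 0.1 in 7 of 12 genotype, 6 of 12 treatment and 2 of 6 exposure pairs. With the replicate block, TMZ minus solvent in end enrichment had exact p = 0.0039 and adjusted p = 0.027 over the 8 blocked tests, and the gradient exact p = 0.0068 and adjusted p = 0.027. The 3x against 1x gradient did not pass with the block (exact p = 0.031, the smallest that 6 pairs allow, adjusted 0.083). No other single value changed its call. With the block, 27 ends (57.4% of blocks) and 249 tiles (15.2% of tiles) were called for TMZ against solvent. For TMZ against solvent, enrichment was 0.051 with no minimum score, -0.062 within set 1 and 0.113 to 0.192 with a replicate left out; the gradient was -0.162 with no minimum score (exact p = 0.020), 0.048 within set 1 and -0.101 to -0.070 with a replicate left out. For 3x against 1x, enrichment was 0.112 with all autosomal G sites as reference (exact p = 0.04), 0.079 without the distal 100 kb (exact p = 0.05), 0.108 without set 1, -0.030 with no minimum score and 0.027 to 0.13 with a replicate left out; the gradient was -0.301 with no minimum score (exact p = 0.005), -0.076 and -0.060 within sets 2 and 3, and -0.075 to -0.048 with a replicate left out. MGMT minus WT under TMZ changed sign in enrichment with no minimum score (0.014), with solvent subtracted (0.0078; MGMT 1x replicate 1 could not be used there) and within set 1 (0.0093), and ran from -0.027 to 0.0036 with a replicate left out; in the gradient it was 0.050 with no minimum score and changed sign as a mean over ends (-0.0097), with solvent subtracted (-0.0010) and within set 3 (-0.0090), and ran from -0.0010 to 0.018 with a replicate left out. In solvent, MGMT minus WT in enrichment became -0.018 with all autosomal sites as reference, -0.0040 without set 1, -0.023 with no minimum score, -0.010 within set 2 and -0.017 within set 4, was 0.124 within set 1, and ran from 0.0059 to 0.041 with a replicate left out; the gradient became -0.103 with no minimum score, -0.038 within set 1, -0.0047 without the distal 100 kb and 0.015 without set 1 (exact p = 0.05), and ran from 0.00029 to 0.012 with a replicate left out. Naked DNA against cells gave -0.020 within set 1, 0.010 with no minimum score and 0.029 to 0.113 with a replicate left out in enrichment, and -0.155 with no minimum score and 0.0034 with solvent subtracted in the gradient. With a replicate left out, called ends numbered 9 to 32 for TMZ against solvent (16% to 59.8% of all blocks), 0 to 18 for 3x against 1x (0% to 30.9%), 5 to 11 for MGMT against WT under TMZ (15.5% to 29.9%) and 4 to 9 in solvent (17.3% to 31.6%), and called end tiles 143 to 270 (5.85% to 16% of all tiles). Called ends were 18 for 3x against 1x without set 1 (34.8% of all blocks) and 1 with only the groups compared (5.42%). For the lines under TMZ they were 5 with no minimum score (18.5%) and 14 with only the groups compared (37.3%), and in solvent 12 without set 1 (35.4%). All p-values of alternatives other than the block are unadjusted. The causes were not tested. Sites per window, not reads, limit the precision.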
